A study of Homo sapiens with 2 samples.

Results

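The peaks on human chromosome 5 were examined along the short arm (5p) and the long arm (5q). The members were chosen by a measured value, namely that the peak caller listed a region on chromosome 5, and they numbered 567 of the 8043 peaks of the LV-HOXA5 library and 49 of the 635 peaks of the LV-HOXA5-NC library. Both libraries came from TFK-1, a cell line from an extrahepatic cholangiocarcinoma, a cancer of the bile ducts outside the liver. LV-HOXA5 cells carried a lentivirus that overexpressed Flag-tagged HOXA5, and LV-HOXA5-NC cells carried the control vector. Each of the 2 libraries was made by CUT & Tag from 1000000 cells with an antibody to Flag, so there was 1 library per condition. There was no replicate, so no test was made, and the 95% intervals given here cover counting error only. Sequencing gave 15778555 fragments for LV-HOXA5, and 1948734 for the control, which is 12.4% of that depth. Peak lists do not measure expression, so the labelled cell type and the overexpression could not be checked in them.

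HOXA5 is a homeodomain transcription factor, and the homeodomain typically binds short AT-rich sites with a TAAT core. In CUT & Tag a transposase tethered to the antibody cuts nearby DNA, and open promoters can also be cut by free enzyme. Centromeres are built of long tandem repeats called satellites, where a short read can match many places, and extra copies of a region in the cells raise the number of fragments from it. The question was therefore whether peaks along chromosome 5 went with genes, with the local background or with the gene-free centromeric region. The local background of a peak is the number of fragments the peak caller took as its chance level, which is the larger of the genome-wide level (1.44 fragments in LV-HOXA5) and the mean over 10 kb around the peak, the peak's own fragments included. It is known only where a peak was listed, and copy number itself was not measured.

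Sequences are shown for the 2 kinds of gene start on which the account of genes turns, from RefSeq on GRCh38.p14, 5′ to 3′ and ending at the base before the annotated start. The first are starts of genes of cell division under LV-HOXA5 peaks, 250 bases each, with each TAAT (or ATTA, the same letters on the other strand) in capitals.
CCNG1, chr5:163437321-163437570, plus strand: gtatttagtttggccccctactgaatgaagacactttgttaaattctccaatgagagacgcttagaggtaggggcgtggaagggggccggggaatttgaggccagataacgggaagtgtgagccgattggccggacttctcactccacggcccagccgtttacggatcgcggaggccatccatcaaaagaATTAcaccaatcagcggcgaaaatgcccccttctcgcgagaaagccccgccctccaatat
KIF20A, chr5:138178862-138179111, plus strand: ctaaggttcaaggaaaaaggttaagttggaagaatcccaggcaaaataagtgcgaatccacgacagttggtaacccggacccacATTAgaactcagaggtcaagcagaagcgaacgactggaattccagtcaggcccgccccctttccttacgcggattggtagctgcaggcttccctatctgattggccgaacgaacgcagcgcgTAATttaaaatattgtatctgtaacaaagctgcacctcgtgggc
HMMR, chr5:163460382-163460631, plus strand: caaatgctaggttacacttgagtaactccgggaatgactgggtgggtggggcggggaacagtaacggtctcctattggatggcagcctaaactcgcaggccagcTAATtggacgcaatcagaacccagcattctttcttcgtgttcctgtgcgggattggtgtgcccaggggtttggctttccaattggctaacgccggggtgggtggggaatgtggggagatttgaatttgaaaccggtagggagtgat
PLK2, chr5:58460087-58460336, minus strand: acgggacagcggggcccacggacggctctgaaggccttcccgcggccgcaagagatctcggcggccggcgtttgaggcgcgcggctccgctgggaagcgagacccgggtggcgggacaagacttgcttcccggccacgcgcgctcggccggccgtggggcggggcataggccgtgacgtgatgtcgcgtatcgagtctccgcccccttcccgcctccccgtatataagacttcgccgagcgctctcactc
The second are the 100 bases before 3 copies of the TAF11-like array of 5p, with capitals where a copy differs from TAF11L5.
TAF11L5, chr5:17525135-17525234, plus strand: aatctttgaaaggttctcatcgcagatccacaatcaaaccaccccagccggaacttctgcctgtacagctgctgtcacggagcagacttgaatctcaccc
TAF11L9, chr5:17594395-17594494, minus strand: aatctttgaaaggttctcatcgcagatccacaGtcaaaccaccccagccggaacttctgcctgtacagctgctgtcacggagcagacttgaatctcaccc
TAF11L13, chr5:17631988-17632087, plus strand: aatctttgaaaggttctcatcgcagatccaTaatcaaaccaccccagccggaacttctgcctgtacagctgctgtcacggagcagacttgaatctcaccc
The CCNG1 and HMMR stretches each hold a single TAAT, the KIF20A stretch holds 2, and the PLK2 stretch holds none.

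Chromosome 5 held 7.30% of the 7771 autosomal LV-HOXA5 peaks (95% Clopper-Pearson interval 6.73 to 7.90), beside 6.33% of the length of the autosomes and 5.10% of their genes. It was the second of 22 autosomes by number of peaks and the seventh by density, at 3.12 peaks per Mb. Of the 567 peaks, 152 (26.8%) lay in the widest interval without an annotated gene, chr5:45696381-50396191, which holds the centromere and takes up 2.58% of the chromosome. When that interval was left out of every autosome, chromosome 5 held 6.23% of 6663 peaks (5.66 to 6.84) and stood at rank 15 of 22, with 2.34 peaks per Mb. The share above the chromosome's share of length therefore rested on the 152 peaks of the interval. In the LV-HOXA5-NC library chromosome 5 held 8.40% of 583 autosomal peaks (6.28 to 10.96), with 35 of its 49 peaks in the same interval.

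**Figure D1:**
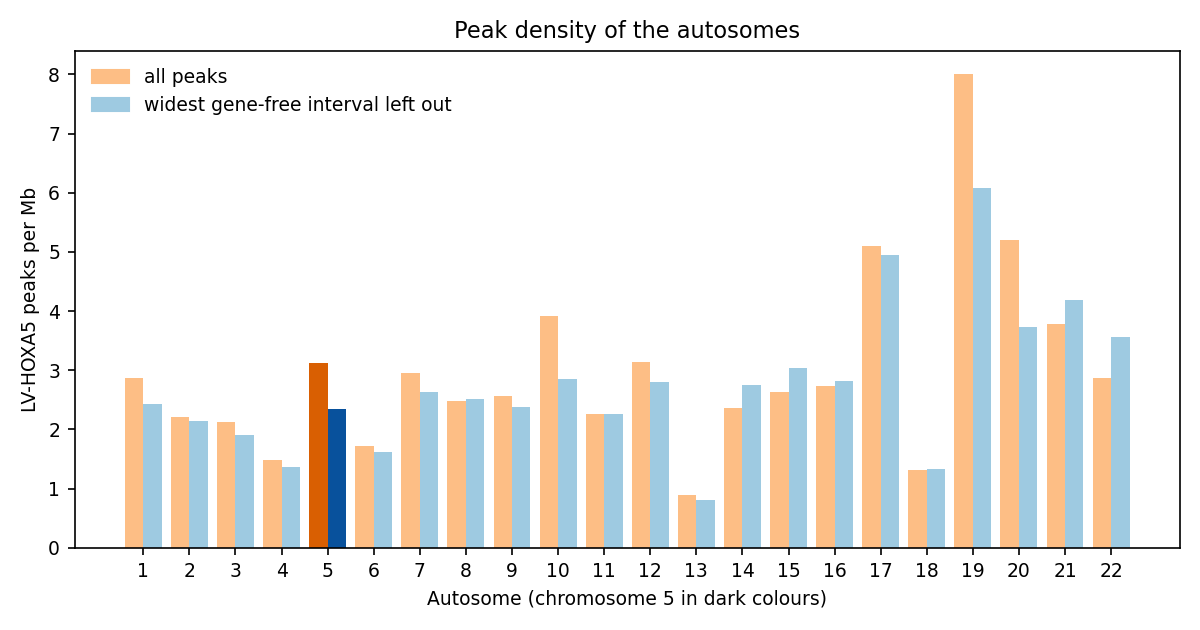
LV-HOXA5 peaks per Mb (vertical axis) on each of the 22 autosomes, with all peaks (left bar) and with the widest gene-free interval of each chromosome left out (right bar). Chromosome 5, in dark colours, went from 3.12 to 2.34 peaks per Mb.

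Along the chromosome the 5 Mb bin from 45 to 50 Mb stood apart. It held 149 peaks, all of them in the gene-free interval, and only 2 genes start in it. The next densest bins were 55 to 60 Mb with 31 peaks, 70 to 75 Mb and 140 to 145 Mb with 25 each, and 155 to 160 Mb with 22. In the 36 bins other than the densest, the number of peaks ran from 2 to 31 with a median of 10, and the number of gene-end peaks (edge within 1 kb of either end of an annotated gene) from 0 to 13 with a median of 4. The median local background of these bins ran from 1.44 to 10.5 fragments, with 29 of them under 3. The densest bin had a median background of 2.41, which ranked 19 of 37. Only 2 bins were over 4 fragments, 15 to 20 Mb at 10.5 and 180 to 185 Mb at 7.80, and they held 10 and 15 peaks.

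Across the 36 bins the number of peaks went with the number of genes (Spearman's rho 0.64, Pearson's r 0.62) and with that of protein-coding genes (rho 0.67, r 0.57). With the median background the 2 measures parted, at rho 0.45 and r 0.15, and genes per bin and background were themselves related at rho 0.54 and r 0.18. Peaks away from gene ends were related to the background at rho 0.25 and r -0.04. With the bin of 45 to 50 Mb included, r was -0.21 between peaks and genes and 0.01 between peaks and background over 37 bins. The bins share 1 library, and the background of a bin is taken from the same peaks that are counted in it, so these coefficients describe this library only.

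**Figure D2:**
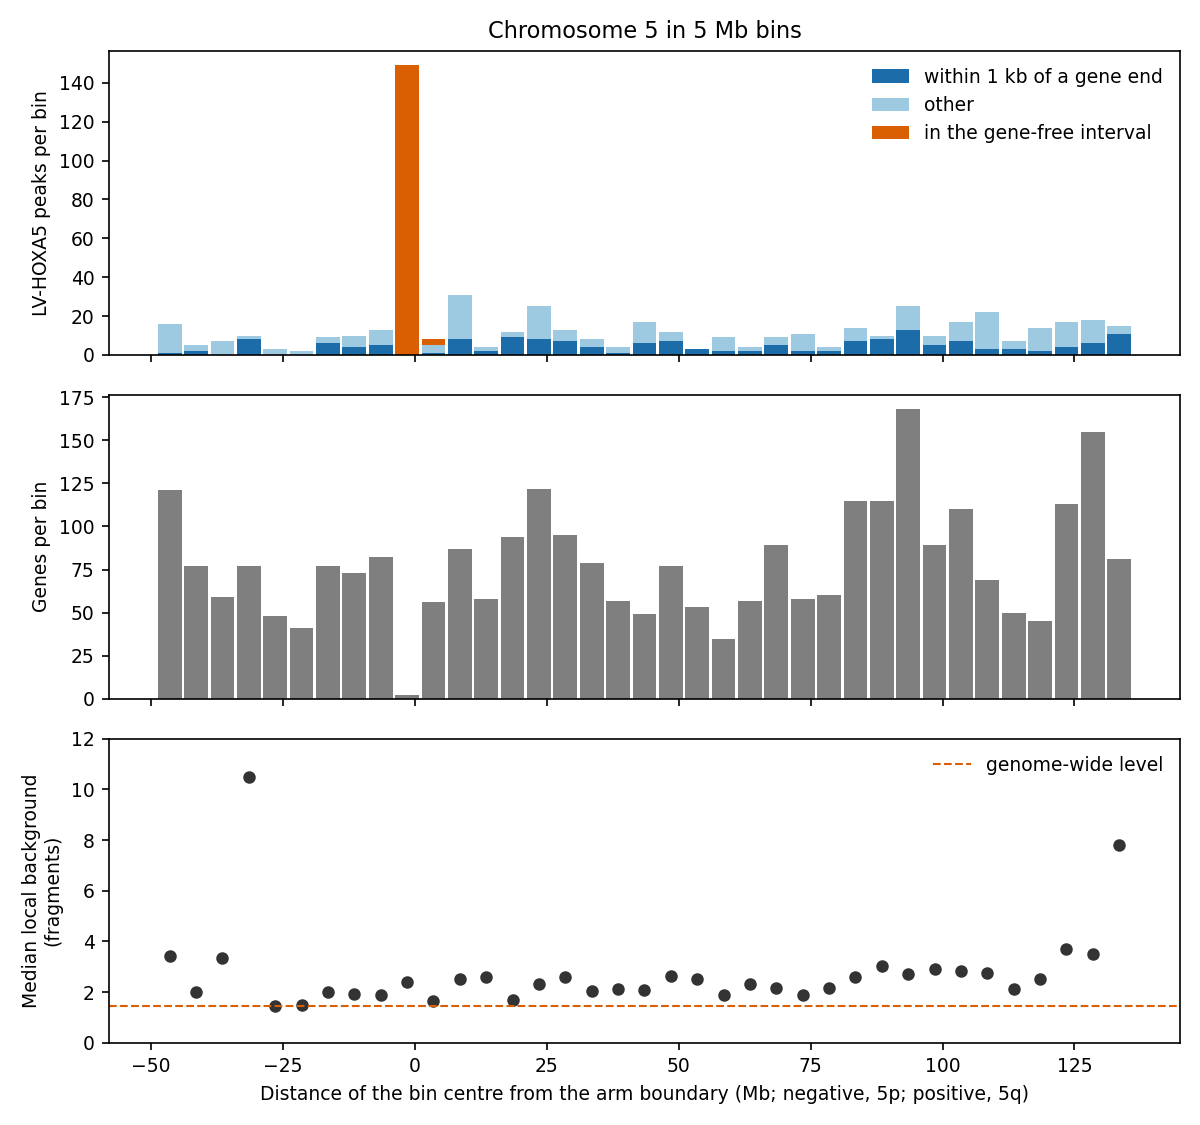
Chromosome 5 in 37 bins of 5 Mb by distance of the bin centre from the arm boundary (horizontal axis, Mb), with LV-HOXA5 peaks per bin split into gene-end, interval and other peaks (top), annotated genes per bin (middle) and the median local background in fragments (bottom, dashed line at the genome-wide level of 1.44). The bin with 149 peaks has a background of 2.41, and the 2 bins with high background hold 10 and 15 peaks.

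By arm, 5p held 162 peaks, or 3.31 per Mb (95% Poisson interval 2.82 to 3.86), and 5q held 405, or 3.05 per Mb (2.76 to 3.36), ranks 13 and 16 of 39 autosomal arms. With the interval left out, 75 peaks remained on 5p, or 1.64 per Mb (1.29 to 2.06), and 340 on 5q, or 2.58 per Mb (2.32 to 2.87). The ranks were then 35 and 18, so the order of the arms turned. The arms also differed in genes, with 13.4 per Mb on 5p and 16.8 on 5q. An LV-HOXA5 peak lay within 1 kb of an end of 36 of the 657 genes of 5p (5.48%) and of 209 of the 2236 genes of 5q (9.35%), beside 6.83% of all 59792 annotated genes. The 5q share ranked 5 of 39 arms and the 5p share 29.

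The local background of all peaks was lower on 5p than on 5q, while their density was slightly higher. The median background was 2.203 fragments on 5p (95% interval 2.04 to 2.42) and 2.71 on 5q (2.56 to 2.83). Without the interval the medians were 2.42 (2.03 to 3.29) and 2.60 (2.51 to 2.76), ranks 24 and 17 of 39 arms, with overlapping intervals. Leaving out also the TAF11-like array of 5p and the tRNA cluster of 5q gave 2.28 (1.96 to 2.67, 68 peaks) and 2.58 (2.49 to 2.73, 330 peaks). The median over the other autosomes without their widest gene-free intervals was 2.62 (2.58 to 2.66, 6248 peaks).

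The peaks of the gene-free interval had no annotated gene within it, and the first began at 46433517 and the last ended at 50145262. Of the 152 peaks, 87 were on the 5p side of the boundary at 49 Mb and 65 on the 5q side, and 147 lay between 47 and 50 Mb. Neighbouring starts were a median of 12024 bp apart, from 985 to 493871 bp. They were stronger than the other peaks of the chromosome, with a median fold enrichment over the local background of 6.54 against 4.71 and a median pileup of 23 against 16 fragments. A −log10 q-value of 10 or more was reached by 52.0% of them and by 18.1% of the others. Their median background was 2.42 fragments (2.21 to 2.67), against 2.58 (2.50 to 2.74) for the others. The widest gene-free intervals of the other autosomes held 956 peaks with a median fold of 5.83 and a median background of 2.07 (2.01 to 2.15).

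Of the 27 chromosome 5 peaks with a fold of 10 or more, 25 were in the interval. All 10 of the highest-fold peaks of 5p were there, at 12.2- to 18.4-fold, and 7 of them overlapped an LV-HOXA5-NC peak. The highest, chr5:47648507-47648875, had a pileup of 81 fragments over a background of 3.46, and 30 fragments in the control. The next, chr5:48890279-48890599, had 78 fragments, and 37 in the control. On 5q, 8 of the 10 highest-fold peaks were in the interval.

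A block of 67.8 kb on the 5q side of the interval, chr5:49599557-49667328, was the exception in background. Its 16 LV-HOXA5 peaks had backgrounds of 15.9 to 93.3 fragments with a median of 28.9, and pileups of 83 to 650. In LV-HOXA5-NC the block held 11 peaks with pileups of 35 to 264. The other 136 peaks of the interval had a median background of 2.26 fragments and none was over 7.16, while their median fold, 6.54, was close to the 6.52 of the block. The limits of the block were set after its values were seen.

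**Figure D3:**
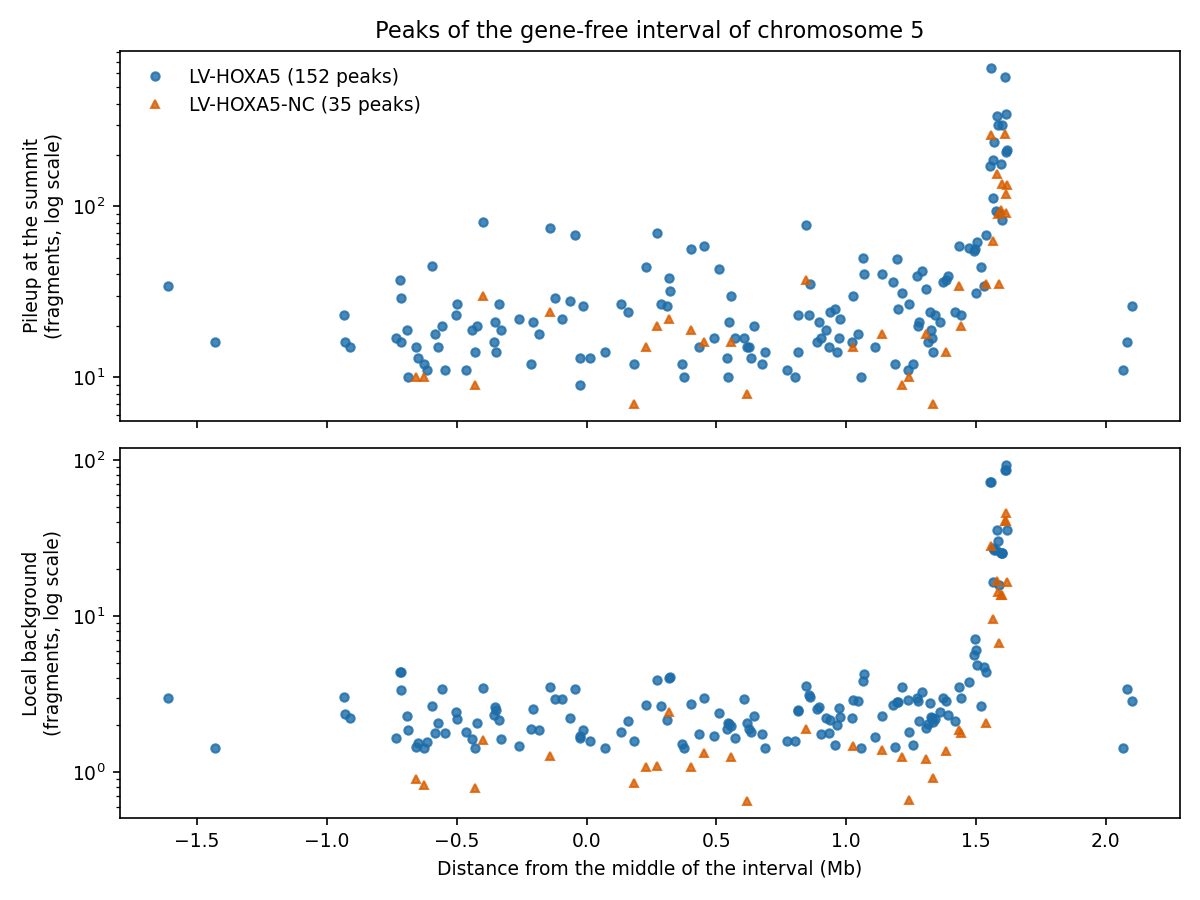
The 152 LV-HOXA5 peaks (circles) and 35 LV-HOXA5-NC peaks (triangles) of the gene-free interval by distance from its middle (horizontal axis, Mb), with pileup at the summit (top) and local background (bottom), both in fragments on log scales. Backgrounds are below 7.17 in LV-HOXA5 except in the block to the right, where they are 15.9 to 93.3.

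The control library listed the interval too. An LV-HOXA5-NC peak overlapped 41 of the 567 LV-HOXA5 peaks by at least 1 bp (7.23%, 5.24 to 9.68), beside 5.52% of the whole LV-HOXA5 list. In the interval it was 35 of 152 (23.03%, 16.6 to 30.5) and elsewhere on the chromosome 6 of 415 (1.45%, 0.532 to 3.12). In the widest gene-free intervals of the other autosomes the share was 18.6% (16.2 to 21.2). Seen from the control list, all 35 LV-HOXA5-NC peaks of the interval overlapped an LV-HOXA5 peak and 6 of the other 14 did, beside 70.7% of all LV-HOXA5-NC peaks. They formed runs of 3 or more at chr5:48228735-48498384, with 6 peaks, and chr5:49183060-49667224, with 20 peaks, where peaks less than 100 kb apart make a run. At the 35 shared peaks the LV-HOXA5-NC pileup was a median of 3.71 times that expected from LV-HOXA5 at the control's depth (2.196 to 7.04), and at the 360 shared peaks of the other autosomes 3.68 times. These peaks were selected for being listed in the control.

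The shallow control limits what a missing peak says. The lowest LV-HOXA5-NC pileup listed on chromosome 5 was 4 fragments, which at equal relative height would need 33 fragments in LV-HOXA5. In the interval 49 LV-HOXA5 peaks reached that height and 24 of them were in the control list, against 5 of 50 on the rest of the chromosome. Among the peaks below it, 11 of 103 and 1 of 365 were listed. At most LV-HOXA5 peaks outside the interval, an equal enrichment in the control was not detectable at this depth.

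Outside the interval, gene ends were the most frequent position. In all, 164 chromosome 5 peaks (28.9%, 25.2 to 32.8) were gene-end peaks, beside 34.9% of the whole list. Without the interval the share was 39.5% (34.8 to 44.4), beside 40.8% (39.6 to 42.0) on the other autosomes treated alike. On 5p it was 16.05% with the interval, the last of 39 arms, and 34.7% (24.0 to 46.5) without it. On 5q it was 34.1% and 40.6% (35.3 to 46.0). Of the 164 peaks, 124 were at an end of a protein-coding gene and 90 covered an end. In LV-HOXA5-NC 1 of the 49 peaks was a gene-end peak, beside 11.5% of that list.

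The remaining peaks outside the interval comprised 143 inside a gene and 108 between genes. Median folds were 4.72 at gene ends, 4.71 inside genes and 4.66 between genes. Median backgrounds were 2.75 (2.56 to 2.90), 2.60 (2.45 to 3.03) and 2.29 (2.03 to 2.58) fragments in the same order. The 3 positions thus had nearly the same fold, and the interval stood above them in fold. Its median background of 2.42 fragments lay between those of the peaks inside genes and between genes.

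**Figure D4:**
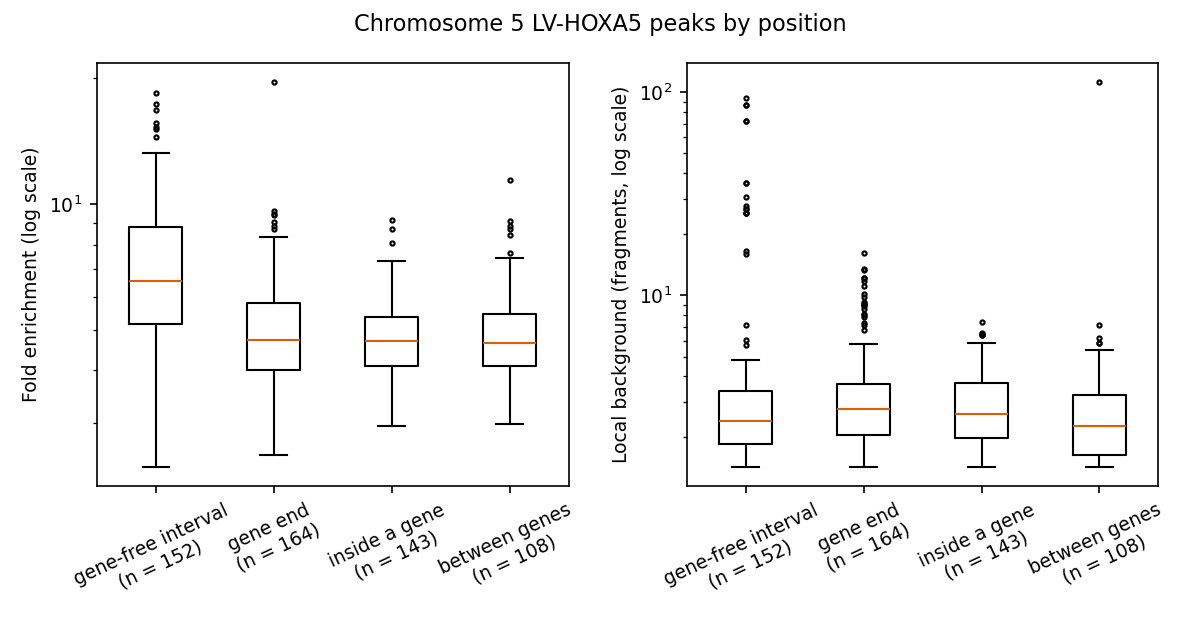
Fold enrichment (left) and local background in fragments (right), both on log scales, of the 567 LV-HOXA5 peaks of chromosome 5 by position. Boxes are quartiles, the orange line is the median, whiskers reach 1.5 times the box and dots are peaks beyond them. Median fold is 6.54 in the gene-free interval and 4.66 to 4.72 elsewhere.

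Per protein-coding gene, chromosome 5 was high. An end of 159 of its 904 protein-coding genes (17.6%) had a peak within 1 kb, the second of 22 autosomes, against 12.9% of 18222 on the other autosomes. Chromosome 12 followed closely at 17.5%, and the 159 genes include 6 copies of the TAF11-like array of 5p. The second rank thus rests on a narrow margin, and no rank was computed without these copies. For all 2893 annotated genes the share was 8.47%. Promoter windows, from 250 bases before to 50 after the start, were overlapped by 115 peaks (20.3%, 17.05 to 23.8), beside 23.6% of the whole list.

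Those peaks covered 181 promoter windows. TAAT on either strand was in 37.02% of them (67 windows, 29.97 to 44.5), in 54.7% of the 1878 windows of chromosome 5 and in 50.2% of all 35116 windows. TAATTA, each match of which also holds TAAT, was in 2.21%, 5.80% and 4.84%. The median GC content of the windows was 64% under a peak, 56% on chromosome 5 and 58.7% in all, so the windows under peaks were richer in G and C, where AT-rich letters are fewer. A match is not a site, and the windows of neighbouring starts overlap.

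Among the genes of cell division and DNA repair on chromosome 5, 10 of 22 (45.5%) had a peak no farther than 1 kb from an end, beside 17.6% of the protein-coding genes of the chromosome and 8.47% of all its genes. The list was chosen with earlier results of these data known, so its share is a description only. The 10 genes rest on 9 peaks, since RAD1 and BRIX1, a ribosome assembly factor kept in the list, share one. The peaks at RAD17, CENPK, POLK, XRCC4 and KIF20A also overlapped promoter windows of neighbours outside the list. In the same order these were AK6 and TAF9, PPWD1, CERT1, TMEM167A and BRD8. Such peaks cannot be assigned to the listed gene alone. None of the 9 peaks overlapped an LV-HOXA5-NC peak, and 1.45% of all peaks outside the interval did. Folds were 3.76 to 9.07, backgrounds 1.44 to 4.29 and pileups 9 to 39 fragments. The peak at CCNG1, which encodes cyclin G1 and is a known p53 target, was chr5:163437291-163437939, with 39 fragments and a 9.07-fold enrichment. HMMR, a spindle-associated hyaluronan receptor, followed next along 5q with 30 fragments (5.86-fold). KIF20A, a mitotic kinesin, had 20 fragments (5.20-fold) and PLK2, a polo-like kinase, 20 fragments (5.68-fold), both over or beside the start.

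A single peak of 18 fragments (6.65-fold) covered the start of RAD1, a subunit of the DNA damage checkpoint clamp. That peak ended 79 bp from the start of BRIX1, the divergent neighbour of RAD1. RAD17, which loads that clamp, had 13 fragments (5.19-fold). XRCC4, needed for DNA end joining, had 15 (4.85-fold). CENPK, a kinetochore protein, and POLK, a DNA polymerase that copies past lesions, had 9 each. These were among the lowest pileups of the chromosome, whose lowest was 8. SKP2, CCNB1, CCNH, CDK7, CDC25C, KIF2A, PTTG1, CENPH, RAD50, CDC20B and MSH3 were among those with none within 1 kb.

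In the list of growth control and cancer genes 3 of 20 (15%) were met, a share near the 17.6% of protein-coding genes. RICTOR, the defining subunit of mTORC2, had 13 fragments (4.19-fold), EGR1, an immediate early transcription factor, 26 (4.62-fold), and CSNK1A1, a casein kinase that marks beta-catenin for destruction, 23 (6.09-fold). Inside the gene body, TERT, the catalytic subunit of telomerase, held a peak of 34 fragments (6.05-fold) 4053 bp from its start. TRIO and SQSTM1 also had a peak in the body and none within 1 kb of an end. APC, CTNND2, NPM1, NSD1, FGF1, FGF10, FGFR4, PDGFRB, CSF1R, MAP3K1, PIK3R1, DAB2, DROSHA and NIPBL had neither.

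Among cytokines and receptors 2 of 12 (16.7%) were met, also near that share. They were OSMR (11 fragments, 4.06-fold) and IL6ST (19 fragments, 4.46-fold). Both encode parts of the oncostatin M receptor. PRLR, IL7R, LIFR, GHR, IL3, CSF2, IRF1, IL5, IL13 and IL4 were not met. Of the 11 homeobox genes of the list none was met. IRX2 was 65641 bp from the nearest peak, and IRX1, IRX4, ISL1, OTP, PITX1, CDX1, TLX3, NKX2-5 and MSX2 were over 100 kb away. None of 5 cadherin genes (CDH6, CDH9, CDH10, CDH12, CDH18), 64 protocadherin symbols, 7 genes of the duplicated region of 5q13 or 29 listed copies of mitochondrial genes was met. That list did not hold MTRNR2L2, which had a peak within 1 kb and is described with the peaks of both libraries. A single peak inside the PCDHA cluster lies in 17 overlapping symbols. With 0 of 11, 0 of 5 or 0 of 7, the numbers are too small to set beside the 17.6% of protein-coding genes of the chromosome. For the 64 protocadherin symbols and the 29 copies, the share over all genes of chromosome 5 was 8.47%. Many of these symbols overlap and many copies adjoin, so they are not separate cases.

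The high backgrounds outside the interval were at few places. Besides the TAF11-like and tRNA genes, they included single peaks near GUSBP18 (11.7 fragments) and GRK6 (8.11). The first peak of the chromosome and that near MTRNR2L2, described below, were also high. The tandem TAF11-like genes of 5p, chr5:17486328-17635053 with 14 copies, held 7 peaks with backgrounds of 8.93 to 16.1 fragments and a median of 12.2. Of the 14 genes 6 (42.9%) were met, beside 8.47% of all genes of chromosome 5. The 7 peaks had pileups of 34 to 75 fragments and folds of 2.51 to 6.25, and no LV-HOXA5-NC peak lay there. The 250 bases before the start were identical in TAF11L3, TAF11L4, TAF11L5, TAF11L6, TAF11L7, TAF11L8 and TAF11L10, and 99.6% identical in TAF11L9. TAF11L13 kept 97.2%, TAF11L2 67.2%, TAF11L14 60.0%, TAF11L11 22.4% and TAF11L12 21.2%. Copies without a peak within 1 kb included these and also TAF11L4 and TAF11L8, whose stretches are identical to that of TAF11L5. Starts of TAF11L3 to TAF11L6 are 3434 bp apart. A read that lies wholly within identical bases cannot be assigned to 1 copy. Of the copies met, only TAF11L3 had a peak over its promoter window, and the sequence under the other peaks was not compared. How reads with several matches were placed is also not given. Which copy gave a peak is therefore uncertain, and the number of copies in TFK-1 is not known here.

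The tRNA genes at the end of 5q also showed raised backgrounds. Of 22 tRNA symbols in the list, some of them pseudogenes, 17 (77.3%) were met in this way, beside 8.47% of all genes of chromosome 5. All 17 were in the cluster chr5:181097070-181222467, where 17 of 18 were met by 9 peaks. These genes are short and close together, so a single peak can meet several of them. The region held 10 peaks with backgrounds of 4.97 to 10.2 fragments and a median of 8.72, and none overlapped an LV-HOXA5-NC peak. The highest, at TRV-CAC1-4, had 55 fragments and a 5.87-fold enrichment. TRT-TGT6-1 in the cluster, and TRK-CTT9-1, TRQ-TTG7-1, TRQ-CTG13-1 and TRC-ACA1-1 elsewhere, were not met. Of these, TRQ-TTG7-1, TRQ-CTG13-1 and TRC-ACA1-1 are annotated as pseudogenes, as is TRL-AAG7-1 among those met. VTRNA1-1, VTRNA1-2 and VTRNA1-3, vault RNA genes that RNA polymerase III also transcribes, had 15, 18 and 19 fragments with backgrounds of 2.46 to 3.36, and VTRNA2-1 had no peak. The TAF11-like and vault RNA lists were chosen after their values were seen.

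Both libraries listed 6 peaks outside the interval. The first peak of the chromosome, chr5:10034-11771, had 953 fragments over a background of 112, and in the control 541 over 71.5. The peak chr5:80651202-80651999, 172 bp from MTRNR2L2, a nuclear copy of a mitochondrial ribosomal RNA gene, had the highest fold of the chromosome. It had 256 fragments (19.6-fold), and the control 174 (20.2-fold). In CLPTM1L the values were 76 and 24 fragments, at chr5:1539731-1540204 they were 44 and 22, near MIR8089 they were 34 and 25, and near LOC100128340 they were 25 and 13.

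High-fold peaks outside the interval that the control did not list included those between genes near FLT4 (51 fragments, 11.4-fold), beside LOC105379016 (30 fragments, 9.61-fold) and at DCTN4 (35 fragments, 9.43-fold), which encodes a dynactin subunit. At depth-scaled heights, those at FLT4 and DCTN4 reached the lowest control pileup and that beside LOC105379016 did not.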

How the data were processed

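Per the file headers, the authors called peaks with MACS 2.2.7.1 on each library alone, without a control file, at a q-value of 0.05. The deposited values are the pileup (a fragment coverage signal), fold enrichment (a ratio to the local background), −log10 p- and q-values, and peak length as another measure. The submitters' processing notes name fastp, Bowtie2, deepTools, MACS2, ChIPseeker and GRCh38. How reads with several matches were placed is not given in the sources used here. The shortest peak the caller allowed was 246 bp for LV-HOXA5 and 283 bp for the control.

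Local background was computed as (pileup + 1) / fold - 1. Peaks were counted by arm (boundary at 49 Mb of 182 Mb, from cytogenetic bands, not the files) and in 5 Mb bins, ranked among 22 autosomes and 39 arms, and compared with the RefSeq gene table (GRCh38.p14, 59792 genes) within 1 kb. Shares have Clopper-Pearson, counts Poisson and medians order-statistic 95% intervals. There are no replicates and no test. Scripts were tested on simulated data. Members and lists were chosen with earlier results of these data known. Named were the 5 densest bins, the 10 highest-fold peaks per arm, list genes and control runs of 3 or more, some of which are not reported here. Python 3.11.15, pandas 2.3.3 and SciPy 1.17.1 were used. Alternatives were a q-value of 0.001, folds at or above the list median, leaving out 45 to 55 Mb, other gene-end rules, another arm boundary, unshared peaks only and 50% overlap.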

Additional observations from a re-analysis of the deposited data

How the results depend on the processing

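No paired analysis was possible because each condition has 1 library. Of 43 other settings over 8 results, 32 stayed within 1.5 times the reported number or density, or within the reported interval of a share or median, and 11 did not. Another 8 values leave out the gene-free interval, a setting chosen after seeing the data.

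With folds at or above the list median there were 312 chromosome 5 peaks, 2.12 per Mb on 5p and 1.56 on 5q, and 10.6% overlapped an LV-HOXA5-NC peak. The number and densities fall by the setting's own construction, which keeps only peaks at or above the median. Without 45 to 55 Mb the values were 1.67 peaks per Mb on 5p, gene-end shares of 34.7% on 5p and 40.9% on 5q, and 1.46% of peaks overlapping a control peak. Without the gene-free interval they were 1.64 per Mb, 34.7%, 40.6% and 1.45%. These settings leave out the peaks of the centre. The 5q gene-end share was 24.9% with protein-coding genes only and 39.8% within 3 kb, and the 5q median background was 2.84 fragments at a q-value of 0.001. The cause of the last was not tested. With the boundary in the middle of the gene-free interval, at 48.0 Mb, 5p had 2.48 and 5q 3.34 peaks per Mb, so the order of the arms in density turned.

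The main limits are the single library per condition, the control's depth of 12.4%, the background being known only at listed peaks, and the satellite sequence of the interval, which was not analysed here.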

Other observations

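Outside the gene-free interval, 164 of the 415 LV-HOXA5 peaks lay in 41 runs of 3 or more peaks less than 100 kb apart. The run with the most peaks was at the end of 5q, chr5:180969178-181223725, with 13 peaks of which 11 were gene-end peaks. PDE4D, which encodes a cyclic AMP phosphodiesterase, held a run of 8 peaks at chr5:59055749-59357938 with a median background of 3.30 fragments, and a second of 5 peaks at chr5:59463917-59563544 with a median of 2.50. Only 1 of these 13 PDE4D peaks was a gene-end peak, and none overlapped an LV-HOXA5-NC peak. A run of 6 peaks at chr5:91162836-91383671 lay by ADGRV1 and ARRDC3, and 1 of 4 peaks at ZNF608 (chr5:124599246-124662453) was outside any gene body. These runs were named after their values were seen.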
